A study of Mus musculus with 2 samples.

Results

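The genes described here are 10 imprinted genes of the fetal growth network: H19, Igf2, Dlk1, Meg3, Cdkn1c, Peg3, Mest, Plagl1, Grb10 and Sgce. Of the 10, 9 were taken by name from 19006 named genes, and H19 was identified by the span of its locus. Their RNA was sequenced in mesenchymal stem/progenitor cells, stromal cells that can form fat, bone and cartilage. The cells were grown in DMEM with serum from the marrow of CD-1 mice aged 3 months. The series holds 2 libraries. One, labelled PPAR-flox, comes from PPARg-floxed cells, which carry Pparg with recombination sites around part of the gene. The other, labelled PPAR KO, comes from PPARg-deficient cells. PPARg is the nuclear receptor that drives fat cell formation. The labels name no Cre line, no number of animals and no pooling, and do not say whether the cells form 1 culture or several. With 1 library per group no difference below has a replicate check, and no test or p-value was computed. In bulk RNA, fewer cells of a type and less RNA per cell cannot be told apart.

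An imprinted gene is expressed mainly from the copy inherited from 1 parent, under the control of a region whose DNA methylation is set in the germ line. Igf2, Dlk1, Peg3, Mest, Plagl1 and Sgce are expressed from the paternal copy in most tissues, and H19, Meg3, Cdkn1c and, outside the brain, Grb10 from the maternal copy. Many of these genes act on growth before birth and are turned down together in most tissues after it. Dlk1, also known as preadipocyte factor, holds back fat cell formation. The deposited values do not separate the parental copies, so imprinting itself was not measured.

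Only Sgce and Grb10 were expressed at an appreciable level, and they differed in opposite directions as deposited. Sgce stood at 173 FPKM in floxed cells and 85.5 FPKM in the deficient library, and Grb10 at 19.1 and 47.6 FPKM. FPKM is the number of fragments per kilobase of transcript, divided by the library's mapped total. Mest, Cdkn1c, Plagl1 and Igf2 stayed under 1 FPKM in both libraries. Dlk1, Meg3, Peg3 and the H19 locus were listed at 0 in both. A gene was kept for the comparison when it reached 1 FPKM in at least 1 library and had a transcript of at least 300 nt, which 2 of the 10 genes and 10634 of all loci did.

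**Figure D1:**
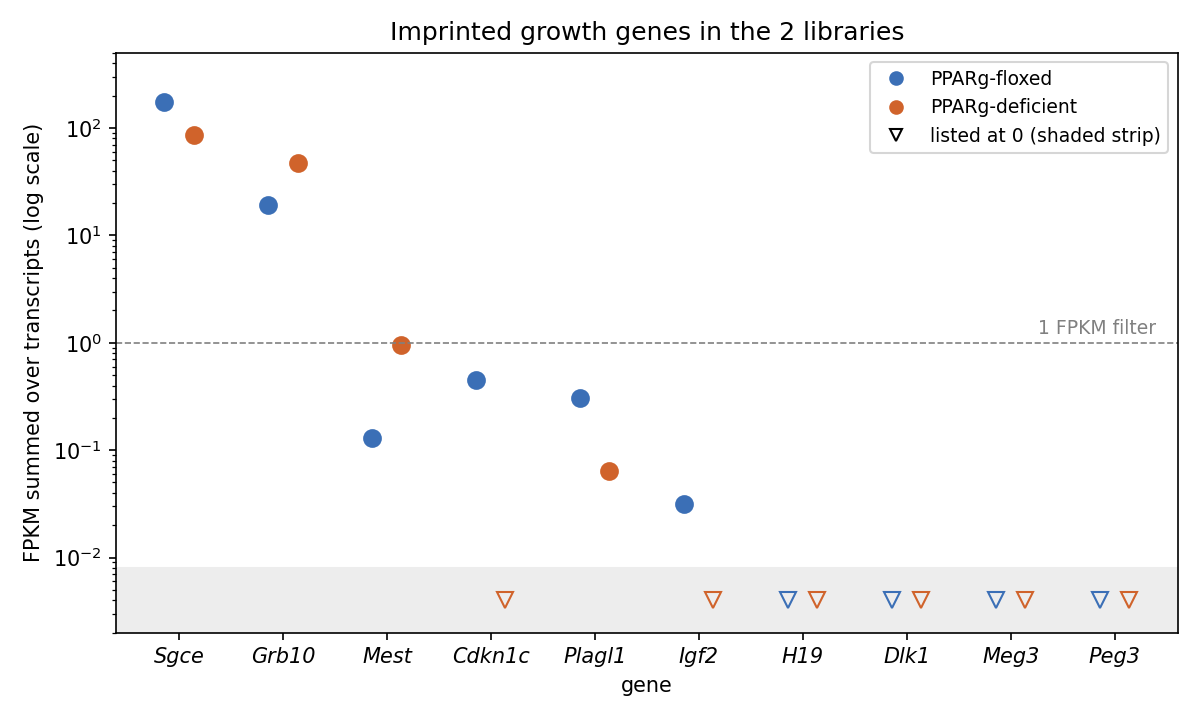
FPKM summed over the transcripts of each gene (log axis) in the floxed library (blue) and the deficient library (orange), 1 point per library. Open triangles in the shaded strip mark genes listed at 0, and the dashed line is the filter at 1 FPKM. Sgce and Grb10 stand above the filter, and Mest in the deficient library (0.955 FPKM) lies just under it.

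The sequences printed here are those at the starts of Mest and Grb10 and the exons by which the Sgce and Grb10 transcripts differ. Mest and Grb10 each have transcripts from an upstream and from a downstream start, and in both genes the deposited values place the signal on the upstream one. In Mest, which was not kept, this rests on about 2.61 and 19.6 fragments, and its exons partly overlap those of Copg2. The Mest transcripts differ only at the 5′ end, so these fragments can hardly settle the start. Bases before each start are printed 5′ to 3′ on the gene's strand (RefSeq, GRCm38.p6), without annotated exons. CpG, the dinucleotide that carries methylation, is in capitals. For the upstream start of Mest the printed stretch therefore ends 53 bases before the start and holds 4 CpG.
Mest upstream start, chr6:30733256-30733453 (+): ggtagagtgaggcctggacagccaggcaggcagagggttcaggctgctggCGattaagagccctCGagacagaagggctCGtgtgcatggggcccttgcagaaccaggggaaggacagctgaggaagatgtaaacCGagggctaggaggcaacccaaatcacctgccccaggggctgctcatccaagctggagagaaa
Mest downstream start, chr6:30737800-30738049 (+): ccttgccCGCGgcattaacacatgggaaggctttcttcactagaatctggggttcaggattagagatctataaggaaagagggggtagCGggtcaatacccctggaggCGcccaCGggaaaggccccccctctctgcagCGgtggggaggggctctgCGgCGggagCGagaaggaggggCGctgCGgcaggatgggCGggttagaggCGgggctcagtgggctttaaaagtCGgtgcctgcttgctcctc
Grb10 upstream start, chr11:12037421-12037670 (-): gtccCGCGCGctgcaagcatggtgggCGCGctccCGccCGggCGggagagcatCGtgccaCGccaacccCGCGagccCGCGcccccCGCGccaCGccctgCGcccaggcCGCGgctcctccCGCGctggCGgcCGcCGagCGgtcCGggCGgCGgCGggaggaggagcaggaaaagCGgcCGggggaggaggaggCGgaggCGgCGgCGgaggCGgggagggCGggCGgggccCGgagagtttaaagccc
Grb10 downstream start, chr11:12027972-12028221 (-): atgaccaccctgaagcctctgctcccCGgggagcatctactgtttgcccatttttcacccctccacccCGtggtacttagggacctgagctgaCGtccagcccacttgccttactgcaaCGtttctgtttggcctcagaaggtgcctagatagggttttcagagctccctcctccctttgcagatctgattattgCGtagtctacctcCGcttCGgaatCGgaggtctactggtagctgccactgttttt
These coordinates are of GRCm38, not of the build of the deposited files (mm9). The RefSeq starts lie as far apart as the starts in the files, 4544 bases in Mest and 9449 bases in Grb10. In the full 250 bases before each start, Mest holds 7 CpG upstream and 14 downstream, and Grb10 holds 40 upstream and 8 downstream. At least 40 CpG occur in 1.31% of 32851 such windows. RefSeq windows were matched for 7 of the 10 genes. Their 14 windows, some of which overlap, hold a median of 9 CpG, against 6 over all windows. Of the response element of PPARg with its partner RXR, only an exact form was searched, on both strands. This form (DR1) is a pair of AGGTCA in the same orientation with any 1 base between them. It was found in 0 of the 14 windows and in 0.0335% of all windows. A form this rare is unlikely in 14 windows, so the 0 cannot tell whether PPARg binds near these genes. Looser forms and bases farther away were not searched. The shorter AGGTCA, which lies within DR1, was found in 2 of the 14, 1 of Igf2 and 1 of Meg3, and in 14% of all. H19, Cdkn1c and Sgce had no entry.

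The alternative exons of Sgce and Grb10 are given below where they are wholly coding (GENCODE M21, GRCm38), because they tell the transcripts apart. No base is in capitals.
Sgce exon of 27 nt, chr6:4690469-4690495 (-): ggaaaagagagacatgcaaaccccaga
Sgce exon of 108 nt, chr6:4730006-4730113 (-): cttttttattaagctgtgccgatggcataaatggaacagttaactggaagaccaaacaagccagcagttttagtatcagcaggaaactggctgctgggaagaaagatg
Sgce exon of 35 nt, chr6:4677163-4677197 (-): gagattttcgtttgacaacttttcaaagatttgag
Grb10 exon of 165 nt, chr11:11954744-11954908 (-): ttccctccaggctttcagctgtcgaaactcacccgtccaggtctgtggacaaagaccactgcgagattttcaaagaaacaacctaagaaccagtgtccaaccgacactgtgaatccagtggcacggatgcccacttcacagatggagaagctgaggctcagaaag
The Sgce exon of 35 nt is the 3′ end of a longer exon of 71 nt (chr6:4677163-4677233), of which 32 bases are coding.

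Sgce encodes epsilon-sarcoglycan, a membrane glycoprotein, and lay on chromosome 6 from 4624350 to 4697204 (mm9, minus strand; ENSMUSG00000004631.15). It measured 173 FPKM in the floxed library and 85.5 FPKM in the deficient library. The floxed library was 2.02 times as high, a log2 fold (deficient over floxed, after adding 1 FPKM) of -1.01. The median locus was itself 0.86 higher in the deficient library on that log2 scale, so Sgce lay at -1.87 relative to the median locus. Of all 10634 kept loci, 11.7% were at least 2-fold lower relative to the median locus and 4.56% were at least 2-fold lower as deposited. Sgce was among both. In level it ranked 347 of 8528 kept named genes in the floxed library and 952 in the deficient library. The values rest on about 2457 and 1246 fragments. No locus on the other strand overlapped it.

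Nearly all Sgce signal lay in 1 of its 7 transcripts. This transcript has 11 exons and 1696 nt, includes the exon of 27 nt printed above, and lacks the exons of 108, 71 and 35 nt. Its level was 167 FPKM in the floxed library (deposited bounds of 155 to 179) and 84.2 FPKM in the deficient library (79.3 to 89.1). These bounds do not overlap, but each comes from 1 library and holds no spread between cultures. The share of all loci with bounds apart is not given here. This transcript held 96.3% and 98.4% of the gene. The transcript with the exon of 35 nt was at 3.74 FPKM in the floxed library (2.32 to 5.17), against an upper bound of 0.14 FPKM in the deficient library. Transcripts with the exon of 71 nt summed to 2.13 and 1.35 FPKM, and those with the exon of 108 nt to 0.46 FPKM in the floxed library and 0 in the deficient library. The share of Sgce FPKM in transcripts with the exon of 27 nt was 96.6% and 98.4%, so the libraries differed in level and hardly in this exon.

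**Figure D2:**
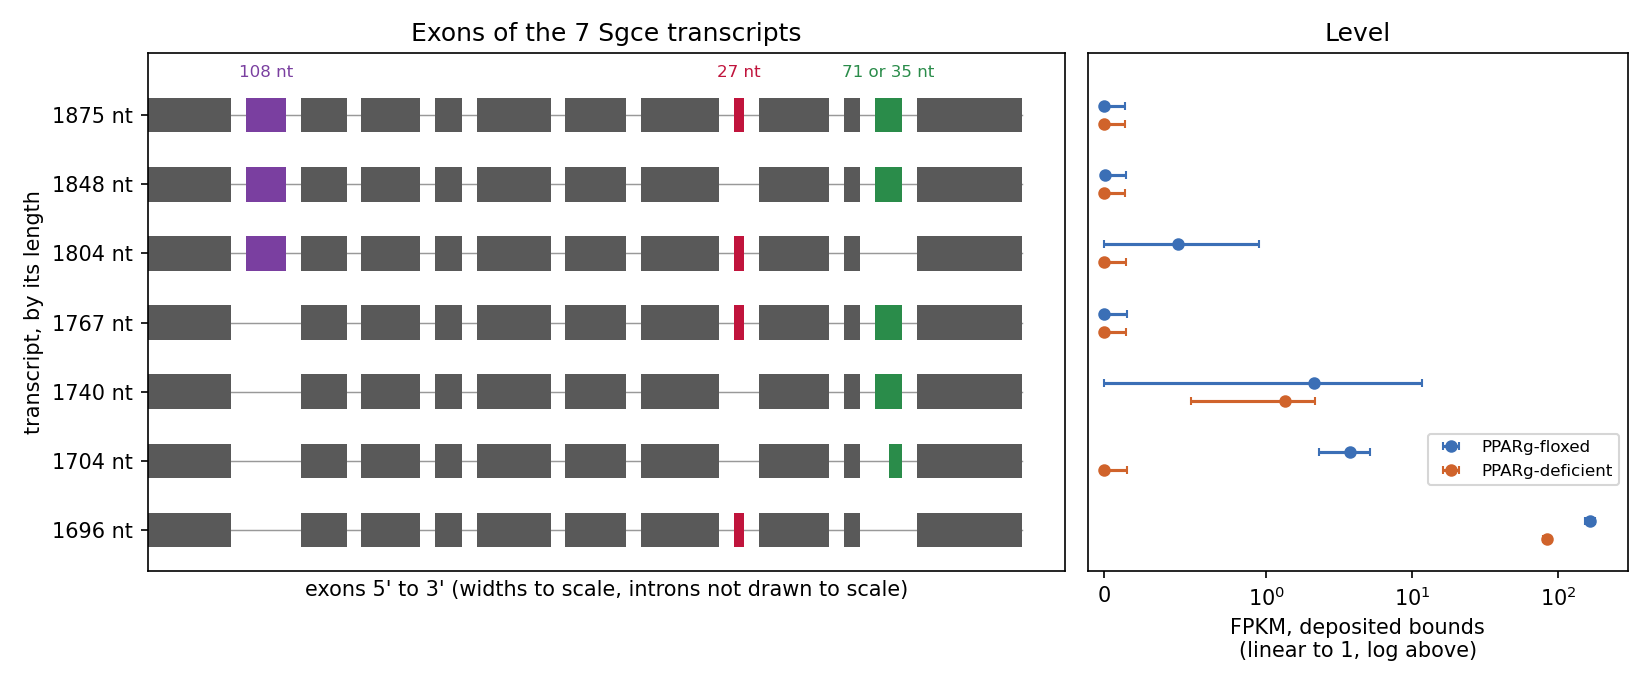
Left, exons of the 7 Sgce transcripts, 5′ to 3′, with widths to scale and the exons of 108 nt (purple), 27 nt (red) and 71 or 35 nt (green) in colour. Right, FPKM of each transcript with its deposited bounds (axis linear to 1, log above), where the transcript of 1696 nt stands at 167 FPKM in the floxed (blue) and 84.2 FPKM in the deficient library (orange).

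Peg10, which encodes a protein derived from a retrotransposon and is also expressed from the paternal copy, starts 102 bases from the Sgce start and runs the other way. It stood at 0.102 FPKM in floxed cells and 0.132 FPKM in the deficient library. The bounds of this single transcript correspond to 6 and 8 fragments, a floxed over deficient ratio of 0.775 (exact 95% interval 0.222 to 2.55, counting error only). In FPKM, Sgce and Peg10 stood far apart in level in both libraries although their starts adjoin. Casd1, the next gene beyond Sgce, was at 1.5 and 1.33 FPKM. Farther along the chromosome the paraoxonase genes Pon3 and Pon2 were at 91.5 and 91.9 FPKM and at 14.7 and 29.7 FPKM.

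Other genes of the sarcoglycan and dystrophin complex were set beside Sgce. Of 7 listed 4 were kept. Relative to the median locus 0 were at least 2-fold higher or lower, against 10.2% and 11.7% of all kept loci. As deposited 1 was at least 2-fold higher, where 42.1% of all were. Sgcd (delta-sarcoglycan) was at 5.96 and 13.6 FPKM, Sgcb (beta-sarcoglycan) at 4.54 and 9.85 FPKM and Sspn (sarcospan) at 4.15 and 6.25 FPKM. The median of the 4 was 0.08 relative to the median locus.

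Grb10 encodes an adaptor protein that binds the insulin and IGF1 receptors and restrains their signal. It lay on chromosome 11 from 11830502 to 11937423 (mm9, minus strand; ENSMUSG00000020176.17). It measured 19.1 FPKM in the floxed library and 47.6 FPKM in the deficient library, 2.50 times as high in the deficient library. The log2 fold was 1.28 as deposited and 0.42 relative to the median locus. Grb10 was thus past 2-fold higher as deposited, with 42.1% of all loci, and within 2-fold of the median locus. The values rest on about 783 and 1951 fragments. No locus on the other strand overlapped it.

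The full-length Grb10 transcript of 17 exons, which begins at the upstream start and includes the exon of 165 nt, was at 17.5 FPKM in the floxed library (15.8 to 19.2) and 40.8 FPKM in the deficient library (38.8 to 42.7). A short transcript from the same start, with 4 exons and no match to an annotated exon chain, was at 1.59 FPKM (0 to 3.90) and 6.85 FPKM (5.43 to 8.28). Its share of Grb10 was 8.34% in the floxed library and 14.4% in the deficient library. The transcript of 16 exons from the downstream start lacks the exon of 165 nt and was at or near 0 in both, with an upper bound of 0.048 FPKM in the floxed library and 0.047 FPKM in the deficient library. In both libraries Grb10 signal therefore came from the start with 40 CpG in its window.

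Of 5 adaptor genes related to Grb10 or bound by it, 4 were kept. Relative to the median locus 3 were at least 2-fold lower and 0 higher, against 11.7% and 10.2% of all loci. As deposited 2 were lower and 1 higher, against 4.56% and 42.1%. Grb14, the closest relative, was at 3.14 and 0.972 FPKM, and Gigyf2, whose product binds GRB10, at 3.31 and 8.88 FPKM. Gigyf1 was at 2.40 and 0.571 FPKM, and Grb2 at 2.38 and 1.86 FPKM. These adaptor genes other than Gigyf2 stayed under 5 FPKM in both libraries.

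Mest encodes a membrane protein with an alpha/beta hydrolase fold and is used as a marker of fat tissue expansion. It lay on chromosome 6 from 30683506 to 30698466 (mm9, plus strand; ENSMUSG00000051855.15). It stood at 0.131 FPKM in floxed cells and 0.955 FPKM in the deficient library. All of this signal was assigned to the transcript from the upstream start, with bounds of 0 to 0.367 and 0.419 to 1.49 FPKM. These bounds do not overlap, but each comes from 1 library and holds no spread between cultures. Transcripts from the upstream and the downstream start differ only at the 5′ end, where the upstream one has a first exon of 108 nt. With the few fragments given below, that exon can hardly settle the start. The transcripts from the downstream start were at or near 0, with upper bounds of 0.093 and 0.090 FPKM in the floxed library. The values rest on about 2.61 and 19.6 fragments.

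Mest runs into Copg2, a coat protein gene on the other strand. In the files 1405 of the 2387 bases of the Mest transcript with signal (58.9%) are also Copg2 exon. Copg2 measured 2.50 FPKM in the floxed library and 16.9 FPKM in the deficient library. Its 3 transcripts that run over the last Mest exon summed to 0.692 and 6.58 FPKM. How strand was handled is not given in the sources used here, so over these bases Mest and Copg2 reads cannot be told apart. The part of Copg2 reads in the Mest value was not tested.

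**Figure D3:**
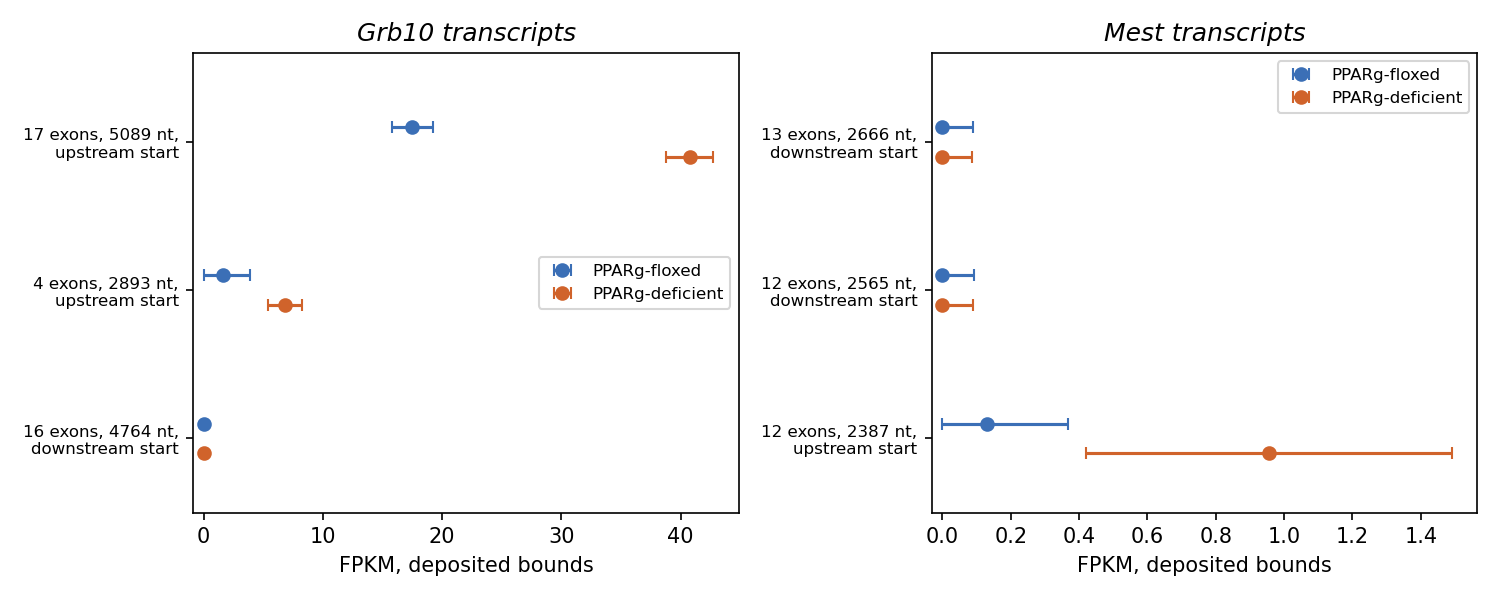
FPKM of each Grb10 transcript (left) and Mest transcript (right) with its deposited bounds, in the floxed library (blue) and the deficient library (orange). In both genes the transcripts from the downstream start sit at or near 0. Those from the upstream start are assigned the signal, up to 40.8 FPKM in Grb10 and 0.955 FPKM in Mest. In Mest few fragments bear on the start.

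Plagl1 encodes a zinc finger transcription factor, ZAC1, that binds and regulates other genes of the imprinted network. It lay on chromosome 10 from 12810594 to 12851501 (mm9; ENSMUSG00000019817.18) with 1 transcript of 6 exons. It was at 0.305 FPKM in the floxed library (0.142 to 0.469) and 0.063 FPKM in the deficient library (upper bound 0.136). These bounds correspond to 14 and 3 fragments, a floxed over deficient ratio of 4.82 with an exact 95% interval of 1.35 to 26.2 for counting error only. Both values lie far under the filter, in a range that few fragments decide. Of its relatives, Plag1 was at 0.847 and 0.12 FPKM, and Plagl2 at 0.976 and 1.13 FPKM. The bounds of the main Plag1 transcript do not overlap, but each comes from 1 library.

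Cdkn1c encodes the cyclin-dependent kinase inhibitor p57. It lay on chromosome 7 from 150644244 to 150646955 (mm9, minus strand; ENSMUSG00000037664.13). It was at 0.454 FPKM in the floxed library, about 7.23 fragments, and at a listed 0 in the deficient one. Nearly all of the floxed signal (0.111 to 0.797 FPKM) lay on the transcript of 1904 nt. Genes of its family and of the cyclins and kinases it restrains were all above 1 FPKM in at least 1 library. Cdkn1a, the p21 gene, was at 3.62 and 44.2 FPKM, a log2 fold of 2.43 relative to the median locus, and Cdkn1b, the p27 gene, at 3.91 and 2.86 FPKM. Of the 7 listed inhibitors, cyclins and kinases 2 were at least 2-fold higher relative to the median locus, Cdkn1a and Cdk4 (59.1 and 324 FPKM), and 2 lower, Ccnd2 (481 and 257 FPKM) and Cdkn1b, against 10.2% and 11.7% of all loci. As deposited 5 were higher and 0 lower, against 42.1% and 4.56%.

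Igf2, which encodes insulin-like growth factor 2, the main growth factor of the network, lay on chromosome 7 from 149836673 to 149846940 (mm9, minus strand; ENSMUSG00000048583.16). It was at 0.032 FPKM in the floxed library, about 0.977 fragments, and at a listed 0 in the deficient one. Its 3 transcripts, which differ in the first exon, had upper bounds of 0.058 to 0.091 FPKM in the floxed library. Genes of the receptors and mRNA binding proteins tied to IGF2 were set beside it. Of the 6 listed 4 were kept. Relative to the median locus 0 were at least 2-fold higher or lower, against 10.2% and 11.7% of all loci. As deposited 2 were higher, where 42.1% of all loci were. Igf2bp3, which encodes an mRNA binding protein, was at 2.35 and 9.37 FPKM, and Igf2bp2 at 4.70 and 5.31 FPKM. Igf1r, the receptor that carries the growth signal, was at 0.846 and 3.50 FPKM, and Igf2r, an imprinted receptor that clears IGF2, at 1.33 and 1.66 FPKM.

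H19, a long noncoding RNA that shares its enhancers with Igf2, has introns in the annotation but was not found by intron lengths. A locus with a single exon of 2615 nt lay on chromosome 7 from 149761437 to 149764051 (mm9, minus strand), and 2615 nt is the annotated span of H19. On that chromosome and strand 1 annotated gene has this span. The gap from this locus to Igf2 is 72621 bases in the files and 72622 bases in the annotation, so it is treated here as the H19 locus. It was listed at 0 in both libraries.

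Dlk1, which encodes a membrane protein related to Notch ligands, has 6 transcripts on chromosome 12 from 110691033 to 110701546 (mm9; ENSMUSG00000040856.17). Meg3, a long noncoding RNA from the same domain, has 6 from 110779206 to 110809939 (ENSMUSG00000021268.17). Peg3, which encodes a zinc finger protein, has 1 transcript of 9 exons on chromosome 7 from 6658671 to 6683130 (mm9; ENSMUSG00000002265.16). Every one of these transcripts was listed at 0 in both libraries, with bounds of 0. A value of 0 can be a failed estimate. Of loci with at least 5 FPKM in the deficient library 0.301% (18 of 5977) were listed at 0 in the floxed library, and 0.360% (15 of 4161) the reverse. A locus that failed in both libraries cannot enter these counts, so they do not gauge the zeros of Dlk1, Meg3, Peg3 and H19. Of all named genes 30.5% (5802 of 19006) were listed at 0 in both libraries. If the zeros are counts, the limit of 3 fragments allows up to 0.137 and 0.134 FPKM for H19, 0.077 and 0.075 for Dlk1, 0.054 and 0.053 for Peg3, and 0.031 in both libraries for the longest Meg3 transcript.

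Most loci around these genes were listed at 0 as well, where 30.5% of all named genes were at 0 in both libraries. For loci shorter than 300 nt no such share is given here. From Dlk1 to the noncoding gene Mirg, over 297 kb of chromosome 12, the files list 62 loci, most of them small RNAs shorter than 300 nt, and 62 were at 0 in both libraries. The nearest named genes that reached 1 FPKM on either side were Wars, 559 kb away (23.4 and 75.3 FPKM), and Ppp2r5c, 698 kb away (15.8 and 57.6 FPKM). Around Igf2 and H19, from Nctc1 to Th over 355 kb, 6 of 7 loci were at 0 in both and Igf2 was the exception. The gene just outside, Mrpl23, 3.87 kb from Nctc1, was at 3.79 and 16.3 FPKM. Around Peg3, from Zim1 to Usp29 over 301 kb, 6 of 6 loci were at 0 in both. Poly(A) selection or size selection of the libraries is not given in the sources used here, so zeros of the small RNAs describe these files only.

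Of 15 Notch pathway genes set beside Dlk1, 5 were kept. Relative to the median locus 0 were at least 2-fold higher and 2 lower, Rbpj (5.06 and 3.67 FPKM), the nuclear partner of Notch, and Notch2 (1.56 and 1.01 FPKM), against 10.2% and 11.7% of all loci. As deposited 3 were higher and 0 lower, against 42.1% and 4.56%. The 3 higher were the ligand gene Jag1 (1.76 and 5.07 FPKM), Hes1 (0.239 and 2.94 FPKM) and Hey2 (0 and 1.19 FPKM). The list median was 0.27 relative to the median locus.

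Imprinted genes outside the 10 were compared in the same way. Of 30 listed genes 21 were matched and 11 kept. Relative to the median locus 0 were at least 2-fold higher and 3 lower, against 10.2% and 11.7% of all loci. As deposited 4 were higher and 2 lower, against 42.1% and 4.56%, so the share higher was near that of all loci. The median was -0.21 relative to the median locus and 0.65 as deposited, where the median of all loci is 0.86. Qpct, which encodes glutaminyl cyclase, was at 31.8 and 2.30 FPKM, a relative log2 fold of -4.18, and Dcn, the matrix proteoglycan decorin, at 2.82 and 0.067 FPKM (-2.70). Commd1 was at 42.4 and 123 FPKM, and Gnas, which encodes a G protein subunit, at 55.5 and 110 FPKM. Snrpn, a splicing protein gene, was at 1.5 and 7.62 FPKM, the highest relative log2 fold of the kept genes in this list (0.93). Blcap (3.22 and 10.3 FPKM), Trappc9 (3.68 and 6.32 FPKM) and Ube3a (3.62 and 5.45 FPKM) lay within 2-fold of the median locus. The list mixes genes imprinted in many tissues with genes imprinted in the placenta or brain.

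Neighbours of the 10 genes, imprinted or not, were set beside them as well. Of 35 listed 30 were matched and 11 kept, with 4 at least 2-fold higher relative to the median locus and 0 lower, against 10.2% and 11.7% of all loci. As deposited 8 were higher and 0 lower, against 42.1% and 4.56%. Cd81, a tetraspanin gene, was at 35.8 and 214 FPKM (relative log2 fold 1.69), Lsp1 at 2.81 and 18.7 FPKM (1.51) and Cars, a tRNA synthetase gene, at 6.97 and 36.8 FPKM (1.39). Copg2, beside Mest, had a relative log2 fold of 1.49. Nap1l4, a histone chaperone gene near Cdkn1c, was at 10.5 and 38.2 FPKM (0.91), and Mrpl23 had a value of 0.995, just under 2-fold. Pon3 (-0.85) and Casd1 (-0.96), both near Sgce, were the lowest, and Sgce itself lay below both.

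**Figure D4:**
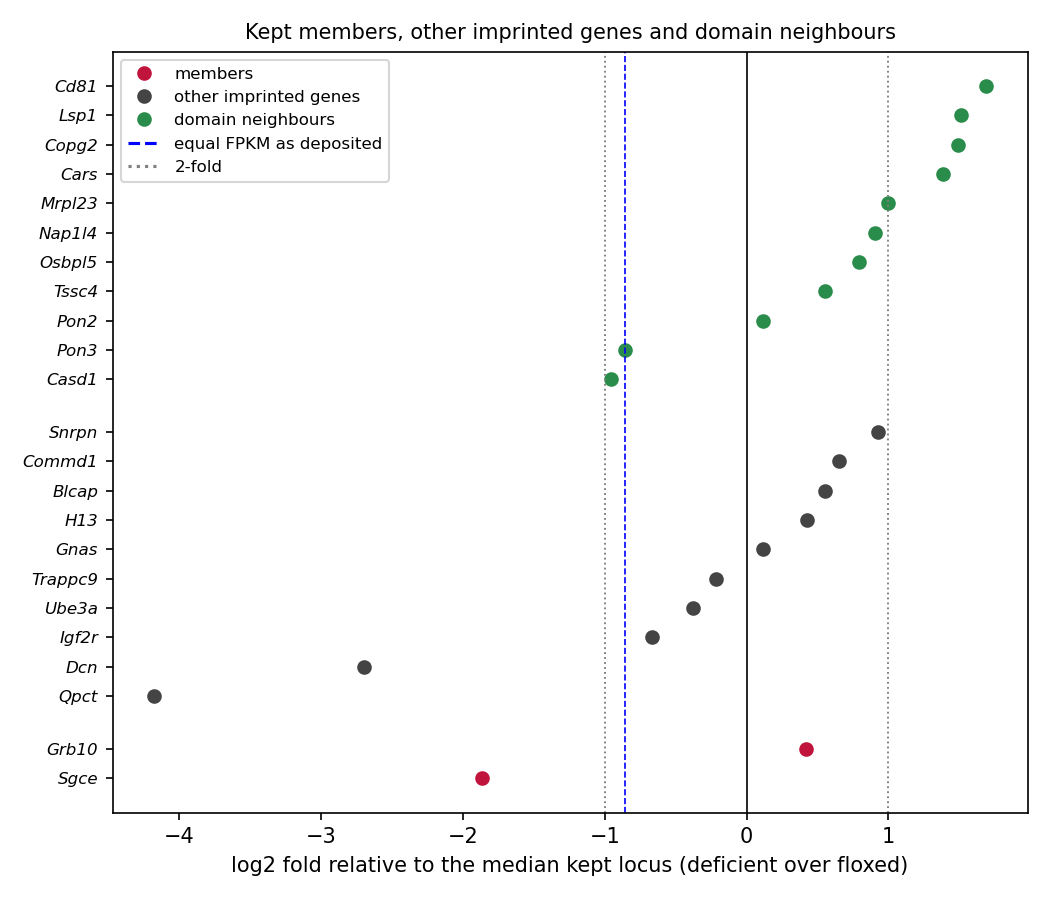
Log2 fold of kept genes relative to the median kept locus (x axis, deficient over floxed), for the 2 members, 10 of the 11 other imprinted genes and the 11 domain neighbours, 1 point per gene. The blue dashed line is equal FPKM as deposited and the dotted lines are 2-fold. Sgce lies at -1.87 and Grb10 at 0.42.

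Set among all loci, Sgce lay near the low end and Grb10 in the upper middle. The relative log2 fold of Sgce was at percentile 4.50 of the 10634 kept loci and that of Grb10 at percentile 71.7. The median of the 2 kept growth genes was -0.73 relative to the median locus and 0.13 as deposited, and it describes neither of them.

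**Figure D5:**
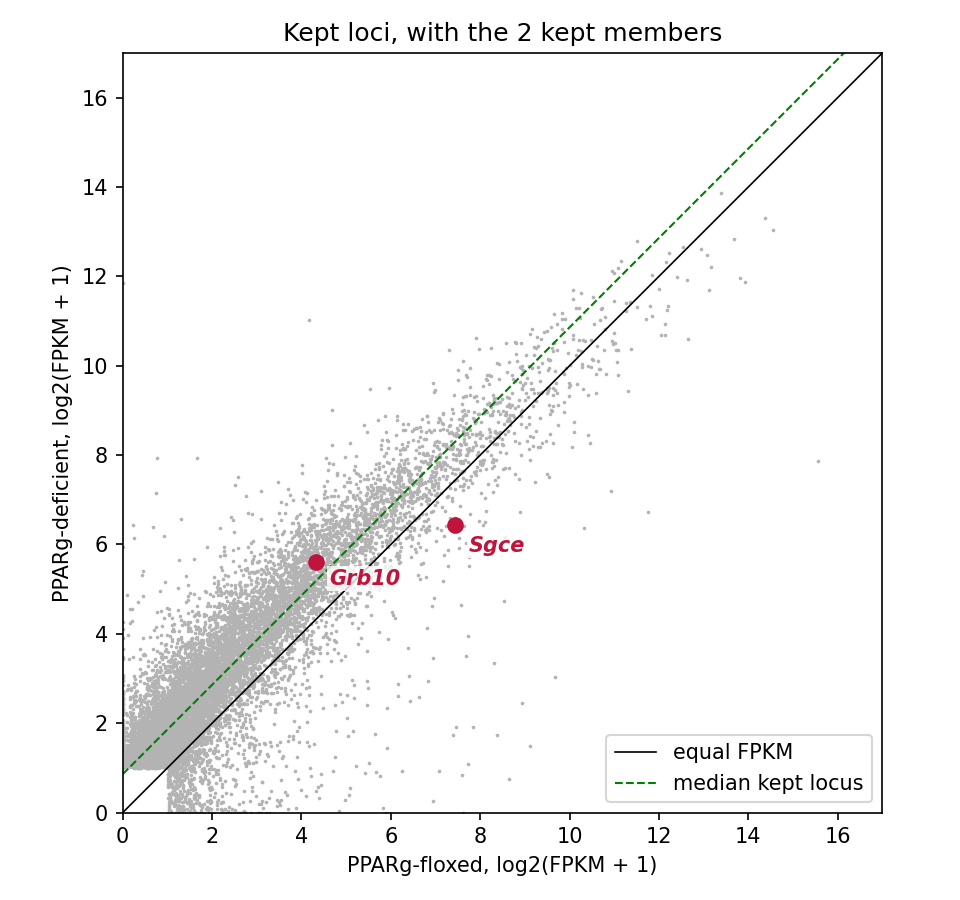
Each grey point is a kept locus, with log2(FPKM + 1) in the floxed library on the x axis and in the deficient library on the y axis. The solid line is equal FPKM and the dashed line the median locus, 0.86 higher. Sgce lies below both lines, and Grb10 lies above the solid line and close to the dashed one.

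Facts of the series that touch these values were as follows. Pparg, the targeted gene, stood at 6.86 FPKM in floxed cells and 1.39 FPKM in the deficient library. Which Pparg exons carry the sites is not labelled. Summed over all transcripts, the deposited coverage came to 1383 (floxed) and 1728 (deficient) megabases. Of 12 mesenchymal stromal markers 9 were kept, with Ly6a at 530 and 841 FPKM, Cxcl12 at 60.4 and 318 FPKM, Pdgfra at 1.37 and 6.82 FPKM, Col1a1 at 173 and 191 FPKM, Vcam1 at 59.9 and 60.2 FPKM and Nt5e at 1.86 and 1.01 FPKM. Relative to the median locus 1 of the 9 was at least 2-fold higher (Cxcl12) and 1 lower (Nt5e), against 10.2% and 11.7% of all loci. As deposited 3 were higher and 0 lower, against 42.1% and 4.56%. The median of the 9 was -0.19 relative to the median locus, and Thy1, Eng and Lepr stayed under 0.5 FPKM. The 9 white blood cell markers summed to 0 and 0.361 FPKM, with Ptprc, Cd3e and Itgam at 0 in both, and the 4 endothelial markers to 0.021 and 0.124 FPKM. Of 4 erythroid markers 3 were matched and summed to 0 and 0.616 FPKM, and the 4 skeletal muscle markers were at 0 in both. The 4 osteoclast markers summed to 48.8 and 150 FPKM, most of it Ctsk (44 and 150 FPKM), a gene stromal cells also express. Acp5 was at 4.73 and 0.651 FPKM, with Calcr and Ocstamp at 0. The 3 hepatocyte genes Alb, Ttr and Apoa1 summed to 4.85 and 3.42 FPKM. The part of these markers in the values of Sgce and Grb10 was not tested.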

How the data were processed

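RNA was sequenced in 2 libraries, 1 per group, grouped by the genotype label. Per the submitters' processing notes, the build mm9, Cuffdiff 2.0.2, Cufflinks 2.0.2 and TopHat2 2.0.5 were used, with no role given. The authors deposited FPKM per transcript in a text field with lower and upper bounds and coverage. For annotation, filters and strand handling the answer is the same: not given in the sources used here.

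Both files list 45543 transcripts in 25707 loci without symbols. Loci were named by matching ordered intron and internal exon lengths to GENCODE mouse M21 (same chromosome and strand), which named 19061 loci. On a wrong chromosome 0 of 37034 chains matched. H19 was identified by its span. Coordinates are the files' own (mm9) unless marked GRCm38.

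FPKM was summed per gene, and 10634 loci were kept (1 FPKM or more in either library, longest transcript 300 nt or more). Folds are log2 of FPKM plus a pseudocount of 1, which understates changes of low genes, also centred on the median locus. A call is 2-fold by size alone. With 1 library per group, no test, SD or leave-one-out was possible.

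For loci with 1 transcript, the half-width of the deposited bounds was read as 2 SD of a fragment count. This gave a whole number within 0.02 for 76.8% of 7195 loci in the floxed and 75.9% of 7771 in the deficient library, so 1 FPKM over 1 kb was about 8.36 and 8.58 fragments. Fragment numbers of genes with several transcripts are estimates from this scale.

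Genes and lists were chosen with earlier results of these data known. The naming rule takes the 10 genes, Pparg, kept imprinted genes and neighbours of at least 5 FPKM, up to 4 such genes of each other list with the largest fold, and the marker genes. Some others under 5 FPKM, such as Igf1r, Igf2r, Grb14, Dcn, Casd1 and Peg10, were named after their values were seen, and 1 imprinted gene is not reported here. Only the fold and centring step was tested on simulated data. Python 3.11.15, numpy 2.4.6, pandas 2.3.3, scipy 1.17.1 and matplotlib 3.10.9 were used.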

Additional observations from a re-analysis of the deposited data

How the results depend on the processing

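Sgce was at least 2-fold lower in each of 9 alternatives of pseudocount, filter, scaling and transcript choice, with log2 folds of -2.16 to -1.01. Of these, the folds as deposited and with TPM are against equal values and not against the median locus. Grb10 was higher in each of the 9, with 0.18 to 1.28, and past 2-fold in 3 of them. The count of growth genes at least 2-fold higher, 0 of 2, became 1 (Grb10) as deposited, 1 with TPM and 1 of 9 with no filter on low values. Counts over all loci in these settings are given below. The count lower, 1 (Sgce), became 0 at 4-fold. The median of the 2 kept growth genes, -0.73, was -0.99 and -0.36 with pseudocounts of 0.1 and 5 FPKM and -0.94 with a filter of 5 FPKM. It was 0.13 as deposited, 0.036 with TPM and -0.93 with upper-quartile scaling. With no filter 9 growth genes entered, and their median of -0.054 is the value of genes listed at 0 in both libraries. Other imprinted genes higher, 0 of 11, became 2 with a pseudocount of 0.1 FPKM, 4 as deposited and 4 with TPM. They became 4 of 21 with no filter, 1 with the most abundant transcript and 2 at 1.5-fold. Over all loci the count higher moved as well, from 1089 of 10634 to 1695 with a pseudocount of 0.1 FPKM. It was 4478 as deposited and 4536 with TPM, 4165 of 24331 with no filter and 1332 of 10343 with the most abundant transcript. For 1.5-fold and 4-fold no count over all loci is given here. Those lower, 3 of 11, became 2 with a pseudocount of 5 FPKM, as deposited, with TPM and at 4-fold. They became 2 of 21 with no filter, 2 of 8 with a filter of 5 FPKM and 4 at 1.5-fold. Over all loci the count lower went from 1242 to 426 with a pseudocount of 5 FPKM, 485 as deposited and 577 with TPM. It was 517 of 24331 with no filter and 859 of 6189 with a filter of 5 FPKM. The settings without centring keep the higher median locus of 0.86, and with no filter most loci are at or near 0 and the median is 0.054. With no filter Mest lay at 0.74 and Plagl1 at -0.35 relative to that median. No paired analysis was possible because each group has 1 library. Depth limits Plagl1, Cdkn1c, Igf2 and Mest, which rest on at most about 19.6 fragments per library.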

Other observations

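Of 17 listed genes tied to DNA methylation, imprints or chromatin 12 were kept. Relative to the median locus 0 were at least 2-fold higher and 1 lower, against 10.2% and 11.7% of all loci, with a median of 0.13. As deposited 6 were higher and 0 lower, against 42.1% and 4.56% of all loci. Dnmt3a, Dnmt3b, Tet1 and Tet3 stayed under 1 FPKM in both libraries, and Dppa3 was listed at 0 in both. Eed, a subunit of the Polycomb repressive complex, was at 6.67 and 24.6 FPKM, Uhrf1, which guides maintenance methylation, at 4.44 and 16.6 FPKM, Zfp57, which protects methylated imprints, at 1.24 and 6.14 FPKM, and Trim28, its corepressor, at 1.53 and 6.68 FPKM. Dnmt1, the maintenance methyltransferase gene, was at 3.46 and 10.8 FPKM, and Tet2, the gene below the 2-fold line, at 2.11 and 1.31 FPKM.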
